A study of Mus musculus with 12 samples.

Results

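Ribosomal proteins of the cytosol are the protein parts of the ribosome that translates nuclear mRNAs, and their genes are the subject here. Members were the rows of the deposited mRNA table whose symbol follows the ribosomal protein pattern (Rpl or Rps with a number and its usual suffixes, Rplp0 to Rplp2, Rpsa) and whose mean log2 value over the 6 libraries was at least 4. Of 90 matching names, 83 met that level, among 14098 genes tested in all. They comprise 49 genes of the large subunit (symbols starting with Rpl) and 34 of the small subunit (symbols starting with Rps). The members just inside the level filter were Rps4l at a mean log2 value of 4.93 and Rps2 at 4.98, and the gene just outside it was Rpl3l at 3.69. Rpl39l, Rpl6l and Rps3a3 stood at 1.87, 0.62 and -0.58, and Rpl10l, Rps12l1 and Rpl32l were listed at 0. GENCODE M21 annotates 81 of the members as protein coding, while Rps4l and Rps3a2 are annotated as processed pseudogenes.

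The tissue was whole tumour from Balb/c mice inoculated with 4T1, a spontaneously metastasising cell line of mouse mammary carcinoma. The stress group had been held in restraint for 2 hours daily over 28 days and the control group had no treatment. Both groups carried tumours for 35 days, and each gave 3 mRNA libraries, whose values are listed below in the order of replicates 1 to 3. The labels do not state which mouse gave which tumour, so the p-values measure the spread between these libraries. The study's title asks about STAT3, miR-337-3p and metastasis, and restraint against no treatment is the comparison that the design offers for ribosomal protein genes.

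A ribosome holds a single copy of nearly every ribosomal protein, and cells make these proteins in step. The small subunit reads the mRNA, and the large subunit joins the amino acids and passes the new chain out through its exit tunnel. Ribosomal protein mRNAs begin with a terminal oligopyrimidine (TOP) tract, a C followed by a run of C and T at the very 5′ end, and mTORC1 controls how well such mRNAs are translated through this tract and the binding protein Larp1. The genes are expressed in all cells of a tumour, cancer cells and stroma alike, and fast-growing cells carry many ribosomes. Mammalian genomes also hold many processed pseudogenes of these genes, copies made from the spliced mRNA that lack introns.

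Start sites were read for this tract in RefSeq's promoter table for GRCm38.p6, which held 61 of the 83 members. The windows below run from 10 bases before the listed start to 20 bases from it on the gene's strand. Capitals mark a run of at least 5 bases that opens with C within 10 bases of the start and continues with C or T. Where a gene had several listed starts, the window shown is that of the start with the longest run, which can lie inside the gene. Rps18, Rpl15 and Rpl12 are shown because their differences were among those with the smallest p. Rps6 is the ribosomal protein phosphorylated below mTORC1, and Rpl7l1, Rpl36al, Rpl22l1 and Rps27l are relatives of other members.
Rps18: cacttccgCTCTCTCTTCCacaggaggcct
Rpl15: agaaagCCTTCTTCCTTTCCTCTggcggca
Rpl12: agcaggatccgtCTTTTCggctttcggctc
Rps6: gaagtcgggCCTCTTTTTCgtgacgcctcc
Rpl7l1: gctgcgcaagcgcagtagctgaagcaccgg
Rpl36al: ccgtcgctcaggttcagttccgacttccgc
Rpl22l1: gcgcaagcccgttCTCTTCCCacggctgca
Rps27l: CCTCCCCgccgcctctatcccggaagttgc
The windows lie at chr17:33955646-33955675 (minus strand), chr14:18270967-18270996 (minus), chr2:32961702-32961731 (plus), chr4:86857348-86857377 (minus), chr17:46782637-46782666 (minus), chr12:69184048-69184077 (minus), chr3:28805498-28805527 (plus) and chr9:66946076-66946105 (plus). A run starting within 10 bases of a listed start on the gene's strand was found in 36 of 61 members (59.0%), against 37.1% of the 10598 tested genes in the table. A gene counted if any of its listed starts held the run, and likewise for the motifs below. Numbers of listed starts per gene were not compared. Rpl7l1 and Rpl36al had no such run within that distance, though a listed start can be off by some bases. The same held for core members such as Rpl4, Rpl5, Rpl11, Rpl24, Rplp0 and Rpsa. From 250 bases before to 50 bases after the start, searched on both strands, CCGGAAG (the core bound by ETS factors) stood in 25 members (41.0%, all genes 18.9%), and AAGATGGC (a YY1 motif) in 6 (9.84%, all genes 4.97%). GGGCGG, the SP1 box, stood in 39 (63.9%, all genes 66.1%). Matches of different motifs may overlap, and a match describes letters and not binding.

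The 9 epithelial markers (Epcam, keratins, claudins) were all above the filter, and their summed log2 level ran from 15.28 to 15.45 over the 6 libraries. Their mean under stress was higher in 4 and lower in 5, with a median difference of -0.021, and 0 were called. Krt7 was lower in all stress libraries than in all controls (difference -0.36, limma adjusted p = 0.221). Stress replicate 3 stood apart from the other 5 libraries. The 18 skeletal muscle markers (such as Acta1 and Ckm) had a summed log2 level of 13.12, 14.25 and 14.53 in the controls and 13.25, 13.46 and 11.97 under stress, and all 18 had a lower mean under stress. The summed level of 13 neutrophil markers was 13.51, 13.06 and 13.51 in the controls and 13.75, 13.07 and 13.95 under stress, while the defining granule genes Elane, Mpo and Camp and the surface marker Ly6g were under the filter. Of these 13, 11 had a higher mean under stress, with a median difference of 0.35. By limma 6 were higher at an unadjusted p under 0.05 (8.26% of all genes), while 0 were called. That of 14 fibroblast markers was 16.996, 17.94 and 17.56 against 17.10, 16.93 and 16.78, and that of 11 lymphocyte markers was 10.10, 9.75 and 10.22 against 10.11, 9.79 and 9.72. The mean under stress was lower in 13 of the fibroblast and 10 of the lymphocyte markers. In bulk tumour, fewer cells of a type and less RNA per cell cannot be told apart.

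No ribosomal protein gene changed past the threshold between stressed and control tumours. The difference in mean log2 value, stress minus control, nevertheless lay above 0 in 76 of the 83 genes, against 50.6% of all genes tested, and its median was 0.10 against 0.0014 over all genes. The middle 50% of the members had differences of 0.063 to 0.14, with Rps18 lowest at -0.25 and Rpl12 highest at 0.25. With limma on the deposited log2 values, 0 of 83 passed an adjusted p of 0.05 (0.0355% of all genes did, 0.0213% higher and 0.0142% lower). At an unadjusted p under 0.05, 3 members were higher (8.26% of all genes) and 3 lower (9.15%), namely Rpl15, Rpl12 and Rpl7a, and Rps18, Rps4l and Rpl7l1. In 10 members all stress libraries lay above all controls (12.1% of all genes), and in 3 they lay below (12.3%), shares of members no larger than those of all genes. An exact permutation test of a single gene over 3 and 3 libraries cannot go below p = 0.1.

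The shift above 0 rested mostly on 1 library. With each gene's mean over the 6 libraries subtracted, the median of the 83 members stood at 0.015, -0.11 and -0.050 in the controls and at -0.0030, -0.054 and 0.22 under stress. Stress replicate 3 is thus alone in standing high, and stress replicates 1 and 2 lie within the range of the controls. The highest value of the 6 was in stress replicate 3 for 73 members, while 23.2% of all genes peaked there. The lowest was in control replicate 2 for 53 members, against 19.9% of all genes, and all 53 of these also peaked in stress replicate 3. Without stress replicate 3 the median difference was 0.020 and 55 of 83 genes were above 0. Without control replicate 2 it was 0.063. As shares of the summed linear values of a library, the 83 genes made up 2.86%, 2.62% and 2.74% in the controls and 2.81%, 2.72% and 3.18% under stress.

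**Figure D1:**
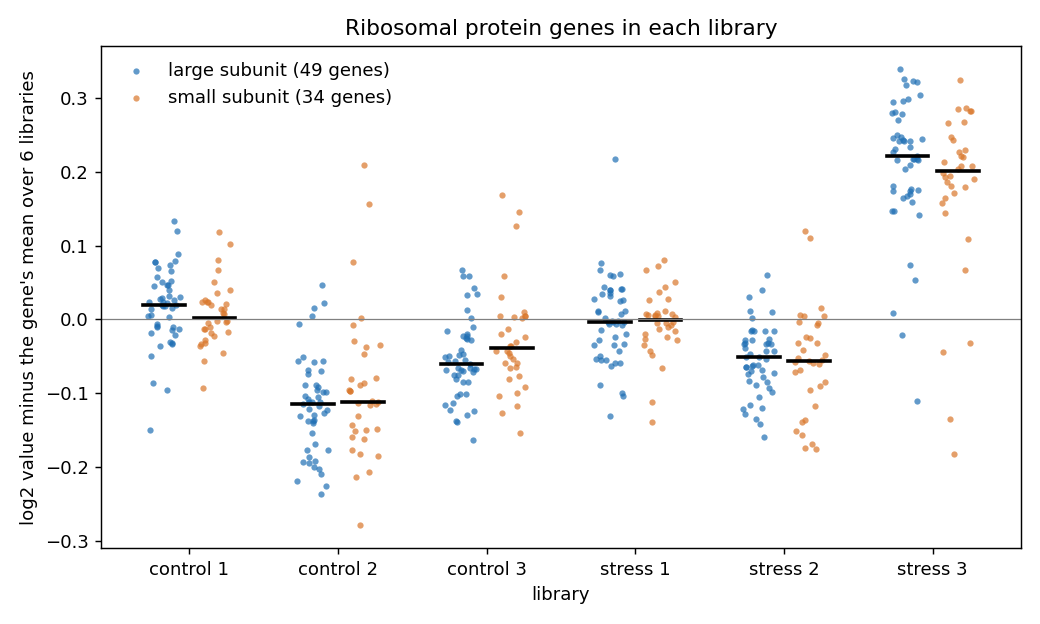
Each point is 1 gene in 1 library, plotted as its log2 value minus its mean over the 6 libraries, with the 49 large subunit genes in blue, the 34 small subunit genes in orange and black bars at their medians. The points of stress replicate 3 have medians of 0.22 and 0.20, while the medians of the other 5 libraries lie between -0.11 and 0.020.

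Between the groups, muscle marker levels differed in the direction opposite to the ribosomal protein genes, though the order of single libraries matched only in part. Stress replicate 3 held the lowest summed level of muscle markers and the highest median of the members, and control replicate 1 had the next lowest muscle level and the next highest median, 0.015. Control replicate 3 had the highest muscle level, 14.53, but its median of -0.050 was above the -0.11 of control replicate 2. A limma fit with the mean muscle marker level as a covariate gave a median difference of -0.029, with 30 of 83 genes above 0. Muscle markers themselves were lower under stress and lowest in stress replicate 3. The fit therefore cannot fully separate the muscle level from the group or from that library. Stress replicate 3 was also the highest in neutrophil markers and the lowest in fibroblast markers, and the part of these cell types in the result was not tested.

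Both subunits differed by nearly the same amount. The median difference was 0.11 in the large subunit (46 of 49 above 0) and 0.091 in the small (30 of 34 above 0), which are 0.020 apart. In single libraries the median deviation of the large subunit minus that of the small, the balance of the subunits, was 0.018, -0.0027 and -0.021 in the controls and -0.0027, 0.0051 and 0.021 under stress, so neither group stood clear of the other. The group means of this balance were -0.0020 and 0.0078, and their difference of 0.0098 was smaller than its pooled standard deviation within groups, 0.016. The pooled standard deviation of the members' median was 0.11. The balance between the subunits therefore varied less between libraries than the shared level did. Without stress replicate 3 the medians of the subunits were -0.0003 apart. Levels per kilobase of transcript, with near copies added in as described below, had medians of 13.12 log2 units in the large subunit (49 genes) and 13.14 in the small (32 genes with a coding transcript).

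Rpl15, Rpl12, Rpl7a, Rpl24 and Rps24, among the 10 members with the smallest p, were higher in the stress mean. Rpl15, a large subunit protein (chr14:18267823-18271391, GRCm38), had log2 values of 12.59, 12.56 and 12.61 in the controls and 12.75, 12.72 and 12.86 under stress. All stress libraries lay above all controls, and the difference was 0.19 ± 0.054 (SE; 1.14-fold, limma adjusted p = 0.166). The difference was 0.15 without stress replicate 3 and 0.13 with the muscle covariate, so it rested on that library less than the members' median did. Rpl12, at the base of the stalk that recruits translation factors (chr2:32961559-32965345), had 9.76, 9.74 and 9.69 in the controls and 9.89, 9.87 and 10.18 under stress. Its groups did not overlap either, with stress replicate 3 the farthest out, and the difference was 0.25 ± 0.088 (SE; 1.19-fold, adjusted p = 0.22). Rpl7a, a large subunit protein, stood at 13.60, 13.52 and 13.49 in the controls and 13.62, 13.66 and 13.87 under stress, again without overlap (difference 0.18, adjusted p = 0.287). Without stress replicate 3 the difference was 0.15 in Rpl12 and 0.11 in Rpl7a.

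In the small subunit, Rps24, one of the genes mutated in Diamond-Blackfan anaemia, had 13.70, 13.50 and 13.65 in the controls and 13.76, 13.70 and 13.96 under stress. Control replicate 2 was low and stress replicate 3 high, and the groups did not overlap (difference 0.19 ± 0.086, SE, adjusted p = 0.302). Rpl24, which bridges both subunits, overlapped, with 12.30, 12.15 and 12.18 in the controls and 12.34, 12.29 and 12.55 under stress (difference 0.18, adjusted p = 0.302). Rpl28 and Rpl39 belonged to the 5 largest differences, 0.22 and 0.19, with standard errors of 0.11 and 0.11, and both overlapped between groups. Without stress replicate 3 the difference was 0.12 in Rps24, 0.10 in Rpl24, 0.10 in Rpl28 and 0.076 in Rpl39. Rpl13, Rps3a2 and Rps4x, named after their values were seen, also had no overlap and were on the higher side.

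**Figure D2:**
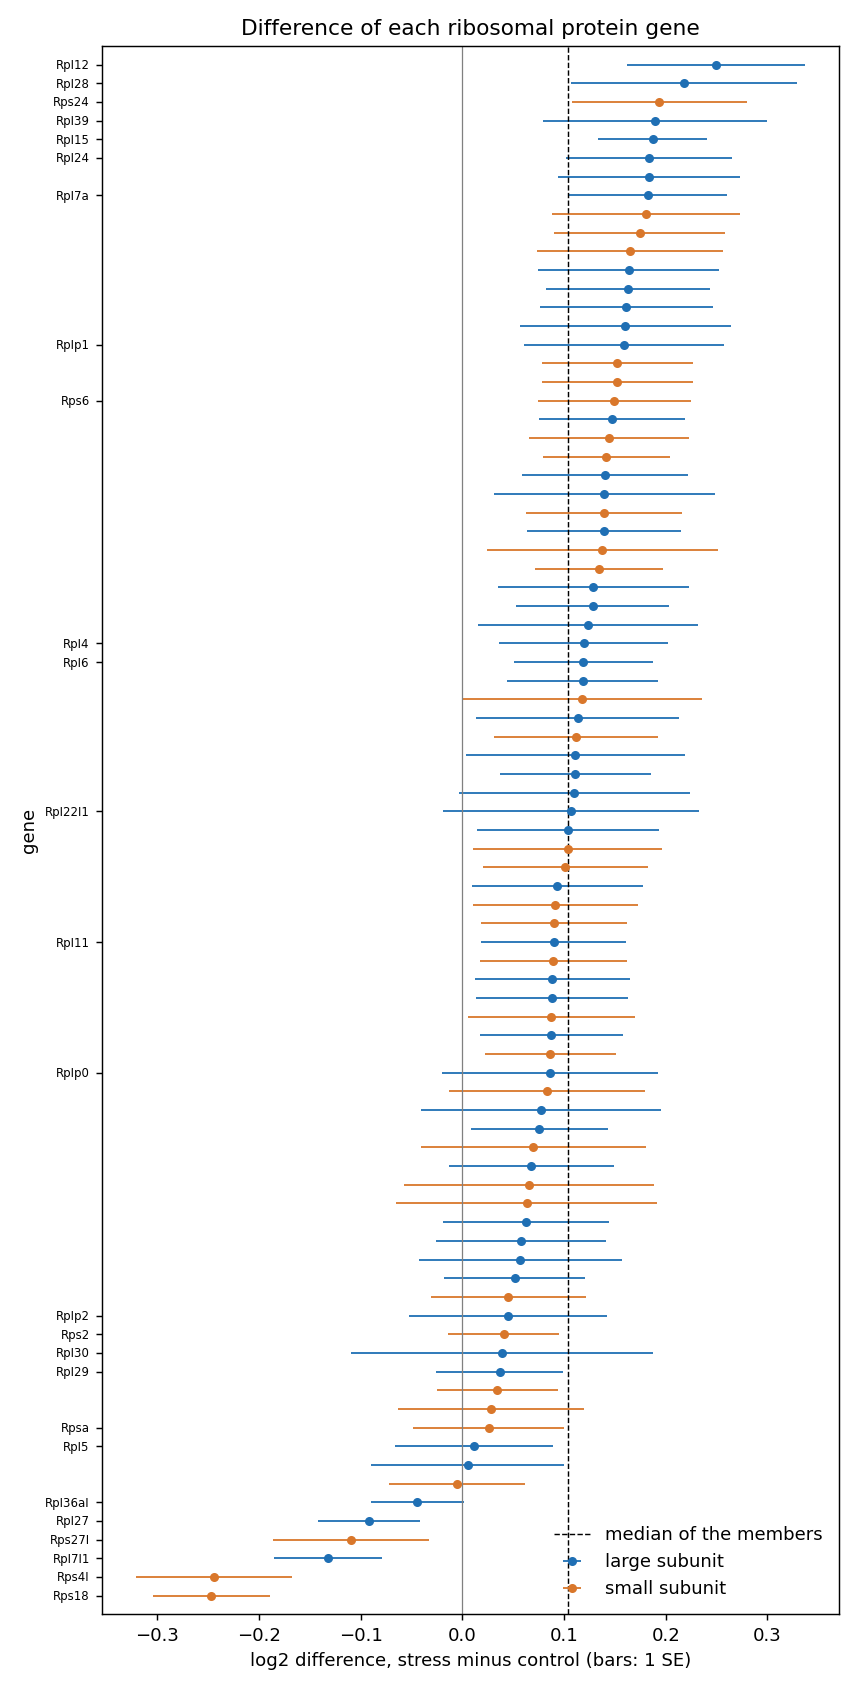
Points give the difference in mean log2 value, stress minus control, of each of the 83 genes, ordered by size, with bars of 1 SE and names at a part of the genes described in the text; blue marks the large and orange the small subunit, and the dashed line is the members' median of 0.10. Most genes lie between 0 and 0.2, and Rps18 and Rps4l stand apart on the lower side at -0.25 and -0.24.

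In their own rows, members with well-known roles differed by amounts from 0.011 to 0.16, and none was called. Rps6, the small subunit protein phosphorylated by S6 kinase, had 13.62, 13.61 and 13.50 in the controls and 13.73, 13.60 and 13.84 under stress, with overlap and a difference of 0.15 ± 0.075 (SE, adjusted p = 0.352). Rpsa, also known as the laminin receptor, had the highest row value of all members, with 15.16, 15.06 and 15.06 in the controls and 15.06, 15.05 and 15.25 under stress (14.43 per kilobase). Its groups overlapped and its difference was 0.026, or -0.04 without stress replicate 3. Rpl4 and Rpl6, next by row value, differed by 0.12 and 0.12. The P stalk genes Rplp0, Rplp1 and Rplp2, which form the landing site for elongation factors, differed by 0.086, 0.16 and 0.044. Rpl11 and Rpl5 form with 5S RNA the particle that binds Mdm2 when ribosome assembly fails. Rpl11 read 12.71, 12.57 and 12.63 in the controls and 12.67, 12.65 and 12.85 under stress (difference 0.09), and Rpl5 differed by 0.011. The rows of Rpl5 and Rplp0 held 4.44% and 35.9% of the value summed with near copies, as described below. Those sums differed by 0.14 and 0.019.

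Grouped by place in the ribosome, all 8 genes at the exit tunnel (Rpl17, Rpl19, Rpl22, Rpl23a, Rpl26, Rpl31, Rpl35, Rpl39) had a difference above 0, with a median of 0.13 and a range of 0.058 to 0.19. Genes of the small subunit's head had a median of 0.087 (13 of 14 above 0) and those of its body 0.10 (16 of 17 above 0). A list of 10 of the genes mutated in Diamond-Blackfan anaemia had a median of 0.087, 9 of them above 0. Without stress replicate 3 the medians were 0.029 at the exit tunnel, -0.0049 in the head, 0.065 in the body and 0.020 in the anaemia list. With the muscle covariate they were -0.036, -0.058, 0.022 and -0.042. Of these groups none had a called gene by limma. At an unadjusted p under 0.05 only Rps18 in the head group was counted, on the lower side (9.15% of all genes). The medians lie around that of all members.

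The table splits the signal of many ribosomal protein genes over rows of near-identical copies, which changes what a member's own row shows. Rows counted as near copies were those whose GENCODE M21 transcript matched a member's coding sequence at 95% identity or more over at least 80% of its length. Of the 83 members 70 had such a copy in the table, with 307 copy rows in all, and 49 of these reached the level filter. All 49 were located in GENCODE M21, and 45 of them have a single exon, the form of a processed copy. The others, BC004004, Gm45713, Wdr89 and Rpl37rt, have up to 9, 13, 3 and 2 exons. All of these but Rpl37rt are annotated protein coding. Their whole rows were added to Rpl21, Rpl13a, Rplp2 and Rpl37, in that order. When copies were added to the own row on the linear scale, 16 members held under 50% of the sum in their own row and 9 held under 10%, while 55 held at least 95%. kallisto assigns reads among transcripts that share their sequence, and how the reads of near-identical rows were divided cannot be told from the table. Values of these 16 genes are therefore uncertain by row, and sums of transformed values are approximate. Near copies were added in after the values had been seen. Rps3a2, itself a near copy of Rps3a1, was added into that gene and also kept as a member. Rps4l and Rps3a2 have no coding transcript, so copies of them were not searched for and their rows stand as they are.

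With copies added in, 78 of 83 differences were above 0 and the median was 0.11. The differences then ran from -0.24 (Rps4l) to 0.19 (Rps24), so the gene with the lowest own-row difference, Rps18, left the lower end. The 16 members with under 50% in their own row went from a median of 0.052 to one of 0.12, close to that of all members. Groups were without overlap in 11 members on the higher side (12.1% of all genes), a share near that of all genes, and in 1, Rpl7l1, on the lower (12.3%). Still 0 of 83 passed an adjusted p of 0.05 by limma, with 4 higher (Rpl15, Rpl7a, Rps18 and Rpl5; 8.26% of all genes) and 2 lower (Rps4l and Rpl7l1; 9.15%) at an unadjusted p under 0.05. In 4 members, Rps18, Rpl27, Rps2 and Rps7, the sign changed.

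**Figure D3:**
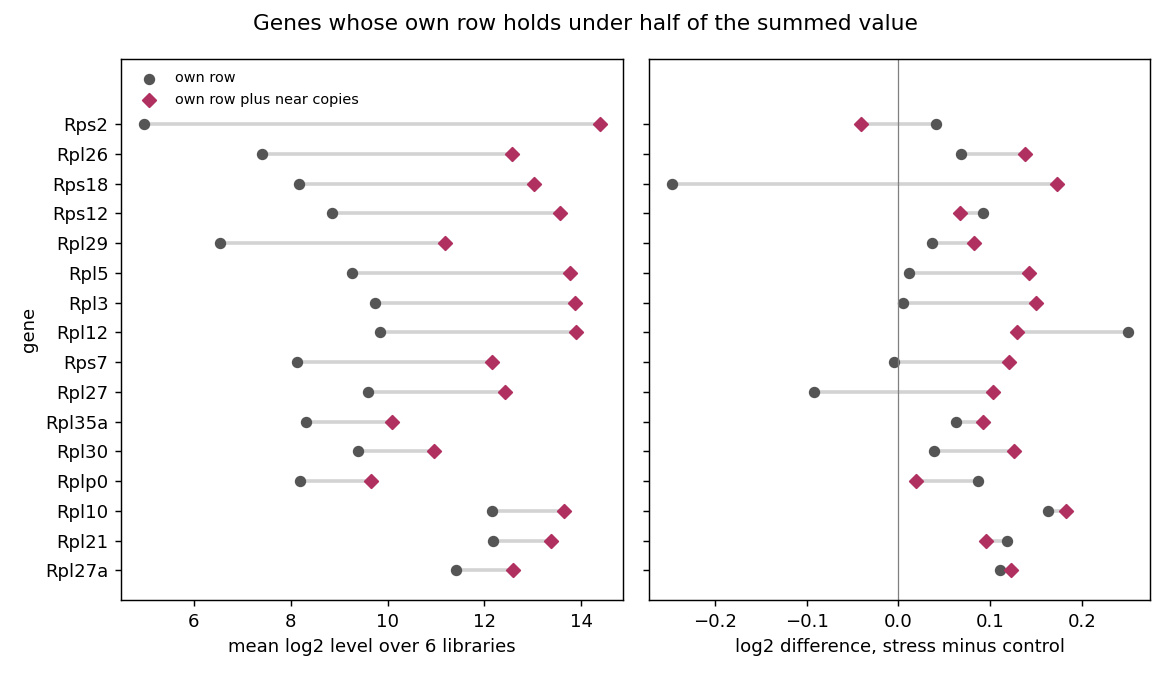
For the 16 genes with under 50% of the summed value in their own row, the left panel plots the mean log2 level over 6 libraries and the right panel the difference, stress minus control, for the own row (grey circles) and for the row plus its near copies (red diamonds). The level of Rps2 goes from 4.98 to 14.38, and the difference of Rps18 moves from -0.25 to 0.17.

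Rps18, a protein of the small subunit's head, is the clearest case. Its own row (chr17:33951999-33956001, GRCm38, minus strand, 5 exons) had log2 values of 8.24, 8.34 and 8.32 in the controls and 8.04, 8.08 and 8.04 under stress. All stress libraries lay below all controls and the spread within groups was narrow, so the row had the smallest p of all members (difference -0.25, SE 0.058, 1.19-fold lower, limma adjusted p = 0.131). That row held only 3.55% of the summed value of Rps18 and its copies. Gm10260 (chr13:97760072-97760632, minus strand, 1 exon, annotated protein coding) read 12.83, 12.68 and 12.76 in the controls and 12.92, 12.85 and 13.08 under stress, higher by 0.19 under stress (adjusted p = 0.248). Gm11361 (chr13:28257528-28258134, plus strand, 1 exon) read 8.76, 8.64 and 8.77 in the controls and 8.74, 8.75 and 9.10 under stress, and Rps18-ps3 (chr8:107262793-107263248) 7.18, 7.04 and 6.9998 in the controls and 7.03, 7.08 and 7.21 under stress. The copies were highest in stress replicate 3, as most members were, and the own row was not. The sum of the rows read 12.997, 12.85 and 12.93 in the controls and 13.07, 13.01 and 13.23 under stress, all stress libraries above all controls, with a difference of 0.17 ± 0.073 (SE, adjusted p = 0.283).

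The sequences show how little tells these rows apart. Below are coding positions 127 to 186, counted from the A of the start codon in the reading direction of the gene, with capitals at the positions where a row differs from another.
Rps18: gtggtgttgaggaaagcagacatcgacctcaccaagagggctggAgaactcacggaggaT
Gm10260: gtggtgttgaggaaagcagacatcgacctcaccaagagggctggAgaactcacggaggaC
Gm11361: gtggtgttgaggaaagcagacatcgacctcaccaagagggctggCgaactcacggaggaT
Over the 456 coding bases Gm10260 differs from Rps18 at 4 positions (T186C, A337C, G371A and G431A) and Gm11361 at 3 (T11A, A171C and A337C), Rps18's base first, which gives identities of 99.1% and 99.3%. Only reads over one of these positions, or over the parts outside the coding sequence, can separate the rows.

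**Figure D4:**
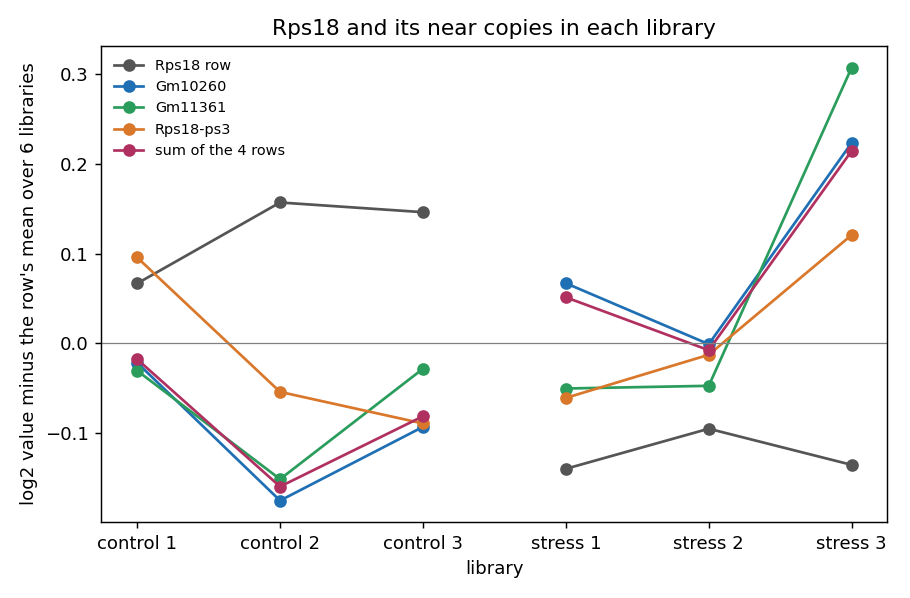
Each line gives a row's log2 value minus its own mean over the 6 libraries, for Rps18, 3 near copies and their sum; the lines only guide the eye. The Rps18 row lies above 0 in all controls and below 0 in all stress libraries, while the sum and Gm10260 are lowest in control replicate 2 and highest in stress replicate 3.

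Other members named by rank or role were divided too. Rpl12 held 6.11% in its own row against Gm10275 (chr10:29698746-29699380, identical over the coding sequence). Gm10275 read 13.81, 13.69 and 13.71 in the controls and 13.78, 13.77 and 14.02 under stress, and the sum differed by 0.13 with overlapping groups, so the lack of overlap in the Rpl12 row did not extend to the sum. Rpl27 held 14.4%. Its own row read 9.67, 9.65 and 9.64 in the controls and 9.51, 9.59 and 9.59 under stress, all stress libraries lower (difference -0.092, adjusted p = 0.383), and the sum with Rpl27-ps3 was 0.10 higher with overlap. Rpl5 held 4.44%, its sum with Gm15500 (chr7:114705217-114706235) read 13.71, 13.70 and 13.68 in the controls and 13.78, 13.80 and 13.93 under stress, and the groups were then apart (difference 0.14 ± 0.059, SE, adjusted p = 0.277). Rps2, listed as a weak gene at 4.92, 4.97 and 4.98 in the controls and 4.97, 5.09 and 4.93 under stress, held 0.147%, and Rps2-ps10 held nearly all the rest at 14.40, 14.45 and 14.34 in the controls and 14.29, 14.33 and 14.46 under stress. The sum differed by -0.041, the own row by 0.041, and the groups overlapped in both. Rplp0, a usual reference gene in quantitative PCR, held 35.9% beside Gm8730 and Gm9625. Its own row read 8.21, 7.99 and 8.23 in the controls and 8.23, 8.06 and 8.40 under stress, and its difference went from 0.086 to 0.019. Rpl29 held 4.01%, and its copies Gm13841 and Gm8210 hold identical values in all 6 libraries, with a mean of 10.11, so the table does not tell them apart. Rpl30 held 34.1% and had the widest range of all members (own row 9.52, 9.16 and 9.46 in the controls and 9.27, 9.27 and 9.73 under stress). Rpl26, Rps12, Rpl3 and Rps7, named after their values were seen, held 2.8%, 3.84%, 5.75% and 6.21%.

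Per kilobase, the own rows had a median level of 12.83 log2 units over the 81 genes with a coding transcript, from 4.98 in Rps2 to 14.88 in Rpl41. With copies added in, the median was 13.12 and the middle 50% lay between 12.38 and 13.58. Rps2 then stood at 14.39, Rps18 at 13.85 and Rpl5 at 12.73. The lowest were Rpl22l1 at 8.59, Rplp0 at 9.22, Rps20 at 9.59 and Rps27l at 10.03, of which Rps20 was named after its values were seen. The log2 level of Rplp0 with copies, not divided by length, was 9.66, and why this core stalk gene stood low was not tested. Levels per kilobase take the linear values to follow read counts, and how the deposited values were made is not known. Lengths are those of the transcript chosen for each gene. The length for Rps20 was 3.71 kilobases and its log2 level with copies, not divided by length, was 11.48, so its rank depends on that choice.

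Most relatives of core ribosomal proteins had a lower mean under stress, against the direction of most members. Of the 5 paralogues above the filter, 4 had a lower mean under stress, with a median difference of -0.11. By limma 0 were called, and Rps4l and Rpl7l1 were lower at an unadjusted p under 0.05 (9.15% of all genes). Rps4l, an expressed processed pseudogene of the Rps4 family, read 4.92, 5.14 and 5.10 in the controls and 4.92, 4.76 and 4.75 under stress. The groups overlapped only in that stress replicate 1 lay slightly above control replicate 1, and the difference was -0.24 (SE 0.077, adjusted p = 0.189). Its level is near the filter. Rpl7l1, a relative of Rpl7 found in ribosome precursors in the nucleolus, read 10.66, 10.53 and 10.59 in the controls and 10.47, 10.49 and 10.41 under stress. All stress libraries were below all controls (difference -0.13, SE 0.053, adjusted p = 0.267), and it had no near copy. Rps27l, a p53 target related to Rps27, read 9.15, 8.95 and 9.15 in the controls and 9.03, 8.89 and 8.99 under stress, and Rpl36al, a relative of Rpl36a, 10.67, 10.63 and 10.67 in the controls and 10.57, 10.62 and 10.64 under stress. Both overlapped, with differences of -0.11 and -0.044. Rpl22l1, which can stand in for Rpl22, was the exception: it read 7.68, 7.52 and 7.78 in the controls and 7.62, 7.64 and 8.03 under stress, a difference of 0.11 that was -0.026 without stress replicate 3. The core partners Rpl7, Rps27, Rpl36a and Rpl22, set beside them after their values were seen, differed by 0.088, 0.15, 0.14 and 0.058. Whether relatives and partners differ in their response was not tested.

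Across the 6 libraries the members followed a common profile. Pearson's r between a gene and the median profile of the other members was at least 0.9 in 58 of 83 (69.9%), against 326 of 14015 other genes (2.33%), and its median was 0.94. These are descriptions over 6 libraries whose profile is set largely by stress replicate 3. It was below 0.5 in 10 members. Rps4l (-0.66), Rps18 (-0.60), Rpl7l1 (-0.48), Rps2 (-0.47) and Rpl27 (-0.29) were below 0, and Rps27l (0.075), Rpl36al (0.13) and Rpl29 (0.32) were low. Rpl10 (0.24) and Rps7 (0.35) complete the 10 and were named after their values were seen. Of these 10, Rps18, Rps2, Rpl27, Rpl29, Rpl10 and Rps7 held under 50% in their own row, and Rps4l, Rpl7l1, Rps27l and Rpl36al are relatives of other members. The genes closest to the profile included Rpl4 (0.995) and Rpl11 (0.99).

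Other mRNAs with a TOP tract, mostly translation factors, were also mostly higher in the stress mean. Of 22 tested, 19 were above 0, with a median of 0.11 (0.038 without stress replicate 3 and -0.013 with the muscle covariate), and in 6 the stress libraries lay above all controls (12.1% of all genes did). Eif4b was among these, as were Eef1a1, Eef2, Tpt1 and Eif3h, named after their values were seen. By limma 0 were called, and 6 higher (8.26% of all genes) and 0 lower (9.15%) had an unadjusted p under 0.05. Near copies of genes outside the members were not added in. Eif4b, a helper of the initiation helicase, read 13.24, 13.15 and 13.15 in the controls and 13.43, 13.27 and 13.44 under stress (difference 0.19, adjusted p = 0.208). It was high in stress replicate 1 as well as 3.

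Ribosome biogenesis factors, which process rRNA and assemble the subunits, pointed the other way. Of 46 tested, 38 had a lower mean under stress and the median was -0.10. In 21 of them the stress libraries lay below all controls (12.3% of all genes did), in 2 above (12.1%), and without stress replicate 3 the median was -0.11. By limma 0 passed the adjusted threshold, and 18 lower (9.15% of all genes) and 1 higher (8.26%) had an unadjusted p under 0.05. The exceptions without overlap on the higher side, named after their values were seen, were Sbds, which frees new large subunits for translation (0.14), and Utp14a (0.083). Nhp2, a core protein of the box H/ACA particles that modify rRNA, read 10.08, 10.09 and 10.04 in the controls and 9.75, 9.79 and 9.81 under stress (difference -0.29, SE 0.048, adjusted p = 0.0947). Bysl, needed to mature the small subunit, read 9.01, 9.09 and 9.09 in the controls and 8.74, 8.81 and 8.71 under stress (difference -0.31, SE 0.057, adjusted p = 0.104). In both genes the groups were well apart, and no single library made the gap. RNA polymerase I genes (15 tested) had a median of -0.0061, with 0 called and 2 lower at an unadjusted p under 0.05 (9.15% of all genes). These were Tcof1, the treacle protein that supports rRNA transcription (-0.19, adjusted p = 0.153), and Polr1e, a polymerase subunit (-0.21, adjusted p = 0.242).

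**Figure D5:**
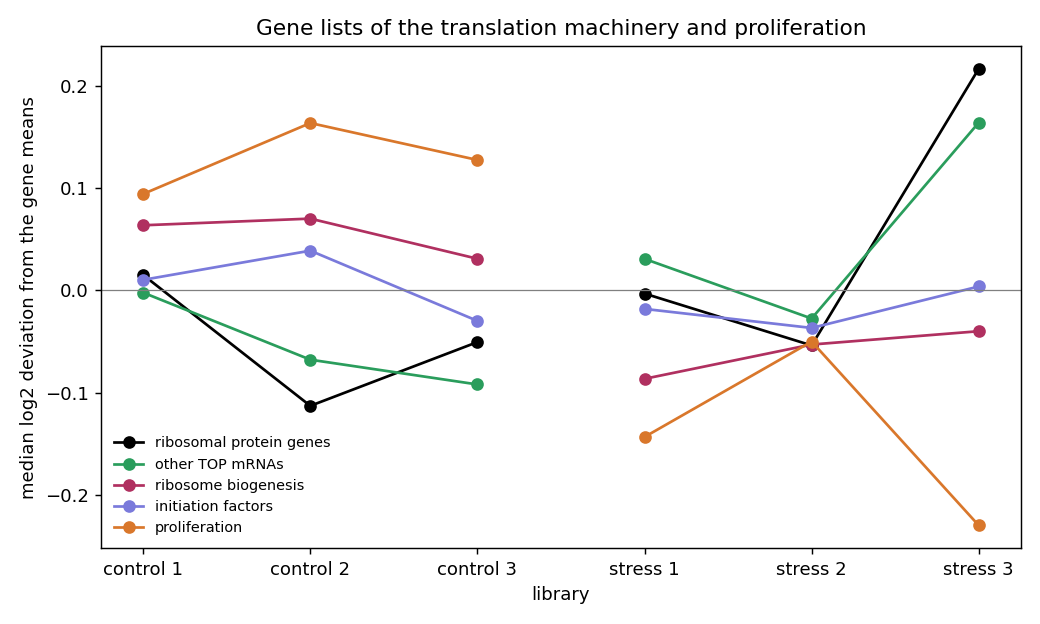
Points give, for each library, the median over a gene list of the log2 value minus the gene's mean over the 6 libraries; lines join libraries of 1 group only to guide the eye. Ribosomal protein genes and other TOP mRNAs peak in stress replicate 3, at 0.22 and 0.16, while biogenesis factors and proliferation genes lie above 0 in all 3 controls and below 0 in all 3 stress libraries.

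Initiation factors and the genes of mTORC1 and its TOP regulators showed no common shift. The 30 initiation factors had a median of -0.0034, with 0 called. At an unadjusted p under 0.05, 2 were higher (Eif4a2 and Eif3k, against 8.26% of all genes) and 3 lower (Eif4ebp2, Eif3b and Eif2s1, against 9.15%). Eif4a2, an isoform of the initiation helicase, differed by 0.25 (adjusted p = 0.165), and Eif4ebp2, a repressor of cap-dependent initiation that mTORC1 inactivates, by -0.14 (adjusted p = 0.187). The 18 mTORC1 and TOP control genes had a median of 0.0011, with 0 called. At an unadjusted p under 0.05, 3 were higher (Ddit4, Tsc1 and Rragc, against 8.26% of all genes) and 1 lower (Mlst8, against 9.15%). Ddit4, an inhibitor of mTORC1 induced by stress hormones and low oxygen, read 10.18, 10.44 and 10.22 in the controls and 10.63, 10.65 and 10.91 under stress (difference 0.45 ± 0.10, SE, adjusted p = 0.12). Mlst8, a subunit of mTORC1, read 8.34, 8.35 and 8.34 in the controls and 8.11, 8.16 and 8.10 under stress (difference -0.22, SE 0.054, adjusted p = 0.138). The groups did not overlap in either gene. Eif3k, Eif3b, Eif2s1, Tsc1 and Rragc were named after their values were seen.

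All 18 proliferation genes had a lower mean under stress, with a median of -0.27. In 16 all stress libraries lay below all controls (12.3% of all genes did). None was called by limma, and 16 were lower at an unadjusted p under 0.05 (9.15% of all genes). Rrm2, a subunit of ribonucleotide reductase, and Plk1, a mitotic kinase, differed by -0.45 and -0.45 (adjusted p = 0.0647 and 0.0769). Stress replicate 3 had the lowest median of these genes, -0.23, and the highest of the ribosomal protein genes. The libraries in which proliferation and biogenesis genes were low were thus not, in stress replicates 1 and 2, libraries in which ribosomal protein genes were high.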

How the data were processed

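The 3 control and 3 stress mRNA libraries were analysed; the miRNA libraries were not used here. Per the submitters' processing notes, bcl2fastq and kallisto 0.46.1 were used with mm10; how the table was made from their output was not given in the sources used here. Although named as raw counts, the table the authors deposited holds normalized log2 values. They ran from -1.97 to 17.85, and their linear sums were 16909189 to 17657459 per library. The spread narrowed at low levels (median range 0.0773 at a mean of 2 to 3, 0.263 at 9 to 10), so fold changes of weak genes may be understated. Base 2 was assumed, and the sequencing depth is unknown.

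Genes with a mean of at least 4 (14098) were fitted with limma 3.58.1 in R 4.3.3 (lmFit, eBayes with trend and robust estimation), stress against control without covariates, two-sided, with Benjamini-Hochberg adjustment over all 14098 and 0.05 as the threshold. The fit was tested on simulated data. Lists are described by counts and medians, with no test. Near copies were found with blastn 2.17.0 against GENCODE M21 transcripts (GRCm38, the assembly of mm10).

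Members and lists were chosen with earlier results of these data known. Genes named with values are the 10 members with the smallest p, the 5 farthest above and below the members' median, the 3 widest in range, the 3 highest and lowest by level, the paralogues, Rplp0, Rpl5, Rpl11, Rpsa and Rps6, and the 2 genes with the smallest p of each other list. Some genes that this rule takes are not reported here. Alternatives were other normalizations, filters and variance settings, a replicate block, a muscle covariate, summed copies and leaving out each library.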

Additional observations from a re-analysis of the deposited data

How the results depend on the processing

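Leaving out each library in turn gave 0 called ribosomal protein genes each time, and 0 to 5 called genes among all genes, against 5 with all libraries. Only leaving out control replicate 2 (5) or stress replicate 2 (4) gave more than 0. The members' median difference then ran from 0.020 (without stress replicate 3) to 0.17, and the large minus small subunit difference from -0.0003 to 0.021. Quantile normalization called 8 genes among all genes, a filter at a mean of 6 called 11, and no variance trend or robust estimation called 2. With the muscle covariate 0 genes were called, the median difference was -0.029 and the subunit difference -0.010. Of all 83 members, 30 were then above 0. Among the 26 members that the naming rule takes, 8 differences turned below 0. These were Rpl11 (-0.028), Rpl22l1 (-0.054), Rpl28 (-0.0027), Rpl30 (-0.21), Rpl4 (-0.021), Rpl5 (-0.12), Rplp0 (-0.049) and Rpsa (-0.093). With the replicate number as a block, 0 genes and 0 members were called and the median was 0.10. The labels do not state that replicate numbers pair libraries, so the numbers were not taken to pair them. Deviations of same-numbered libraries had correlations of -0.079, 0.082 and -0.018, and those of other pairs ran from -0.14 to 0.16. Deviations were taken from the mean of each group's 3 libraries. These correlations are therefore tied to one another and cannot decide on pairing. Sign changes among the same 26 members followed when copies were added. Summing rows named as pseudogenes gave Rpl27 0.10 and Rps2 -0.041, and summing all near copies gave Rpl27 0.10, Rps18 0.17 and Rps2 -0.041. When a library was left out, Rpl30, Rpl5, Rps2, Rpl22l1, Rplp0 and Rpsa turned over among these 26 members. Their ranges were, in that order, -0.11 to 0.12, -0.0591 to 0.0531, -0.0043 to 0.0729, -0.0258 to 0.18, -0.0011 to 0.17 and -0.0398 to 0.0605. Members outside the naming rule also turned over and are not listed. The cause of these changes was not tested. The other alternatives (median centring, no filter, means in place of medians, summed linear values, leaving out the paralogues, only members with at least 50% in their own row) kept the direction of both summaries.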
